A study of Rattus norvegicus with 9 samples.

Results

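CD68+ cells taken from 3-day implants, the cells of a foreign body reaction (FBR), were compared with CD68+ blood cells activated in vitro on fibrinogen (FG). CD68 is a glycoprotein of lysosomes and endosomes that marks monocytes and macrophages, and it was the antigen used to select the cells in both groups. The comparison was chosen by sample label and covers 6 of the 9 arrays of the series, 3 per group, and all 31099 probe sets of the Affymetrix Rat Genome 230 2.0 array, of which 20832 carried a single gene symbol and stood for 14217 genes. All cells came from male Wistar rats. The FBR CD68+ cells were freshly isolated from tissue around patches of photo-oxidized bovine pericardium that had been hung in steel cages in the peritoneal cavity for 3 days, after enzymatic digestion of the tissue, lysis of red cells and magnetic selection. For the in vitro activated CD68+ cells, blood was centrifuged on Histopaque and its mononuclear cells were collected, a step not described for the implant cells. They were then selected for CD68 the same way and kept for 3 days in serum-containing culture on FG-coated PTFE (polytetrafluoroethylene). The remaining 3 arrays hold CD68+ cells freshly isolated from blood. They entered the fit to set the spread, and their values are given only as background. The methods also describe giving polystyrene beads to CD68+ cells right after isolation as a check of phagocytosis, and whether the cells put on arrays had been given them is not stated. Implant material, body site, the animal's tissue fluids and the tissue digestion all changed together with the group. So did the collection of mononuclear cells before selection, and fresh isolation against culture. The parts of all of these in any difference cannot be told apart. The replicates are labelled as biological, but the number of rats behind an array is not given in the sources used here, so n counts arrays.

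Macrophages that meet a foreign surface bind adsorbed fibrinogen through the integrin Mac-1 and take up an activated state. In tissue they also receive damage signals, cytokines and low oxygen from their surroundings. NF-kB and the immediate early factors are transcription factors that switch on cytokine and chemokine genes within a short time of such signals, while PPAR-gamma, liver X receptor and the sterol regulatory factors control how macrophages store, export and make lipid. Dividing macrophages express the genes of DNA replication and mitosis.

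Signals were MAS5 values on a linear scale, and differences are log2 fold changes of signal + 16, FBR minus in vitro activated, with their standard error (SE) and limma's p-value adjusted over all probe sets. A gene was called where the adjusted p was under 0.05. Of 14217 genes, 1262 were called higher in FBR CD68+ cells (8.88%) and 2372 were called lower (16.7%), together 25.6%. The counts of list members below are to be read beside these shares. Of 31099 probe sets, 2429 were called higher (7.81%) and 4563 lower (14.7%), together 22.5%. At an adjusted p under 0.01, 5.0% of genes were higher and 8.29% lower (13.3% together), and of probe sets 4.23% and 6.9% (11.1% together). Among the 13325 genes measured on all 6 arrays, every FBR array exceeded every in vitro activated array for 16.5% and lay below every one for 29.8%, together 46.3%. The largest differences lay on the higher side: 96 genes were called with a log2 fold change of at least 4, against 28 with one of -4 or below, and 20 with at least 6, against 2 with -6 or below. The arrays were scaled to the same trimmed mean (498.9 to 501.5), but their median signals differed, at 77.3, 69.5 and 74.6 on the FBR arrays and 97.9, 87.0 and 110.1 on the in vitro activated arrays. The median log2 fold change over all genes was accordingly -0.23 (probe sets -0.24). After quantile normalisation the probe set median was -0.05, and after centring every array on its median it was 0.10. Of the called probe sets, 34.7% were higher as deposited, 48.3% after quantile normalisation and 62.2% after centring. No probe set turned to the opposite call under either scaling.

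**Figure D1:**
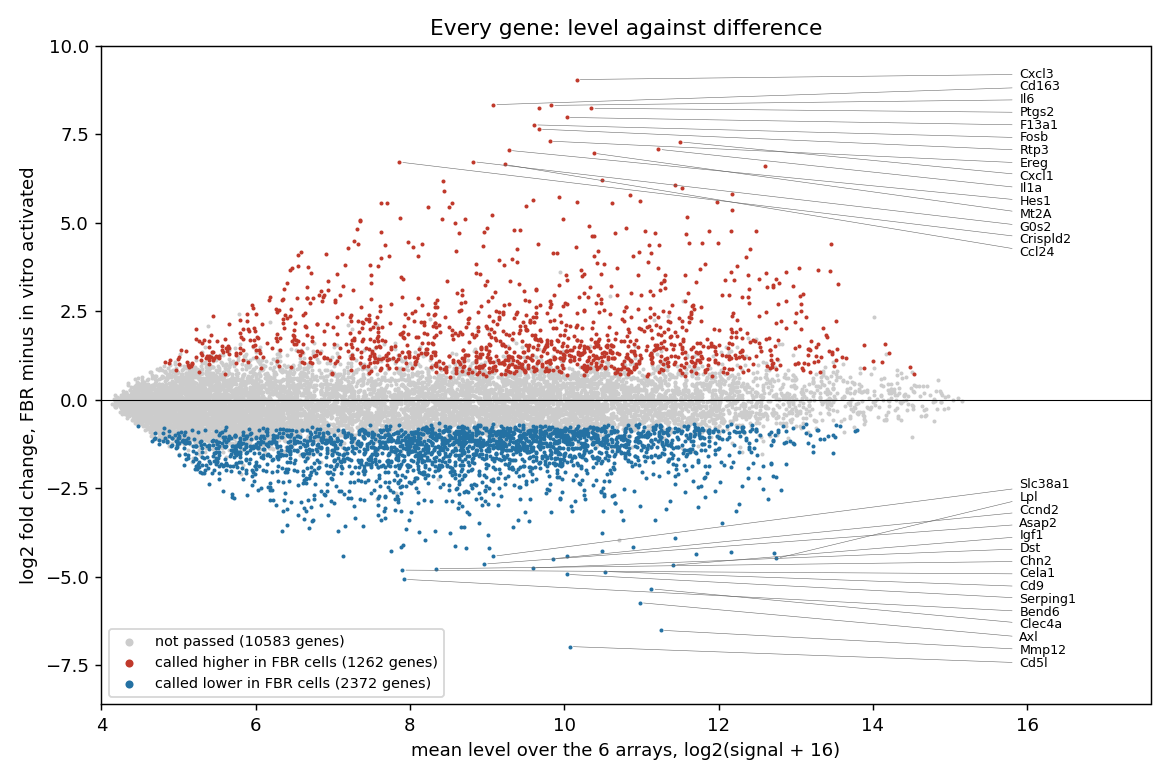
Each point is a gene, with its mean level over the 6 arrays on the horizontal axis (log2 of signal + 16) and its log2 fold change, FBR minus in vitro activated, on the vertical axis. Red marks the 1262 genes called higher in FBR cells and blue the 2372 called lower, and the 15 highest and 15 lowest are named, from Cxcl3 at 9.05 to Cd5l at -6.97.

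Cd68 itself had signals of 20075, 24802 and 20470 in FBR CD68+ cells and 28965, 23892 and 38245 in in vitro activated cells, and the groups overlapped (log2 fold change -0.46, adjusted p = 0.46). The broader macrophage list, with Csf1r, Cd14, Lyz2, Adgre1 and other genes of the lineage, had 5 of 24 measured members called higher, 1 lower and 18 not passing, beside 8.88% higher and 16.7% lower over all genes. The count of higher members was 2 without FBR replicate 1 or 2, 3 without FBR replicate 3 or in vitro activated replicate 1 or 2, 6 without in vitro activated replicate 3, and 9 with arrays centred on their medians. Its summed signal overlapped between the groups, as the plot of summed marker signals shows. Lyz2, the macrophage lysozyme, lay at 26405, 31723 and 22733 in FBR cells and 30450, 23677 and 44445 in in vitro activated cells. Both groups thus carried the markers that their labels name.

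Summed signals of several marker lists of other cell types differed between the groups. The summed signal of 13 neutrophil markers was 24220, 31810 and 28210 on FBR arrays and 16960, 17480 and 3725 on in vitro activated arrays. Most of the FBR sum was Chi3l1 (16815, 23298 and 19523). Most of the in vitro activated sum was Mmp9 (16131, 14646 and 2494), which did not pass. Of 14 measured members 6 were called higher and 1 lower, and 7 had mean signals under 100 in both groups. Without single arrays 4 to 6 were called higher, and the call of S100a8 was lost with any single array left out. The members called higher included S100a9, a calcium-binding protein of myeloid cells (633, 1091 and 1094 in FBR cells against 30.8, 4.81 and 75.6 in in vitro activated cells). Of the genes of neutrophil granules, Lcn2, lipocalin 2, had signals of 484, 418 and 304 in FBR cells and 4.4, 2.35 and 14.9 in in vitro activated cells (4.18, adjusted p = 3.5e-05), and Chi3l1, which macrophages also make, was called higher (4.78). Mmp8 and Defa5 stayed under 40 on all 6 arrays. B cell markers had 2 of 11 members called higher and 4 lower, with summed signals of 4467, 2500 and 2167 in FBR cells and 6230, 9523 and 12320 in in vitro activated cells. Most of the in vitro activated sum was Blnk, an adaptor of the B cell receptor, at 2309, 990 and 771 in FBR cells and 5389, 8370 and 9244 in in vitro activated cells. Cd22 (1.97) and Cd37 (1.9) were the members called higher. Ms4a1, which encodes CD20, had signals of 32.7, 8.45 and 17.7 in FBR cells and 140, 185 and 717 in in vitro activated cells (-3.05, adjusted p = 0.0025). Summed T cell markers overlapped between the groups (3520, 2926 and 3027 in FBR cells, 4467, 4967 and 3482 in in vitro activated cells), and 9 of the 17 members had mean signals under 100 in both.

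Summed mesothelial markers were 13370, 11290 and 9611 in FBR cells and 2441, 2519 and 3134 in in vitro activated cells. Most of that sum came from Pdpn, which encodes podoplanin, at 7219, 6932 and 5926 in FBR cells and 211, 223 and 336 in in vitro activated cells. Msln, which encodes mesothelin and defines that lineage, had signals of 180, 115 and 93.4 in FBR cells and 112, 74.1 and 121 in in vitro activated cells, with overlap, and 10 of 16 members had mean signals under 100 in both groups. Fibroblast markers had 3 of 30 members called higher and none lower. Those higher were Fbln1 (2.95, on 1 of its 2 probe sets), Col6a1 (1.55) and Tagln (1.13). Col1a1, the collagen I chain, lay at 199, 63.1 and 127 in FBR cells and 50, 43.6 and 77.5 in in vitro activated cells on its brighter probe set. That probe set did not pass (adjusted p = 0.095), while the other of its 2 probe sets was called higher. Without single arrays 0 to 2 fibroblast markers were called higher, and with arrays centred on their medians 8 were, Col1a1 among them. With 3 arrays against 3, the exact two-sided permutation p of a summed signal cannot fall below 0.1, which the neutrophil, B cell, mesothelial, NK cell, platelet and red cell, and endothelial sums reached. NK cell markers summed to 1278, 803.8 and 806.7 in FBR cells and 2334, 1785 and 2625 in in vitro activated cells. Most of the in vitro activated sum was Klra5, at 347, 183 and 98.3 in FBR cells and 1668, 1253 and 1795 in in vitro activated cells. Of the 15 NK members 14 did not pass, and 12 had mean signals under 100 in both groups. Platelet and red cell markers summed to 21510, 18100 and 14410 in FBR cells and 8394, 4056 and 7359 in in vitro activated cells, mostly Pf4, which is also a chemokine. Endothelial markers summed to 6037, 5042 and 5088 in FBR cells and 4298, 2770 and 2764 in in vitro activated cells, with 2 of 17 members called higher and 3 lower. In a mixed preparation, fewer cells of a type and less RNA per cell cannot be told apart. The part that such cells have in the results below was not tested.

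**Figure D2:**
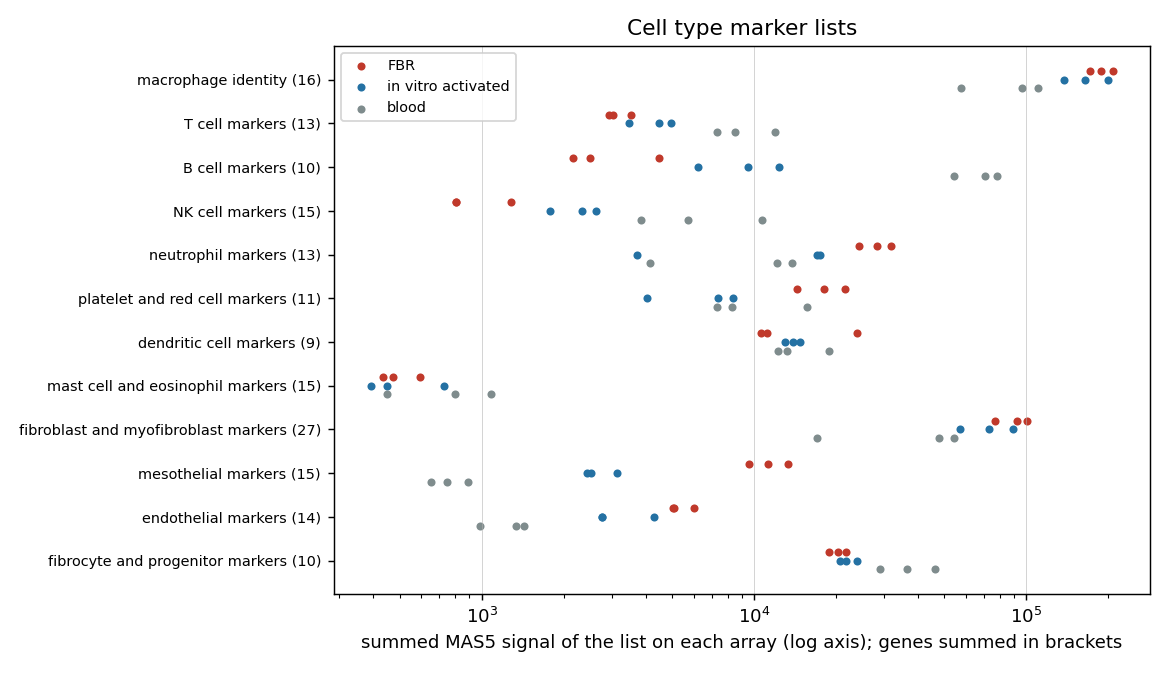
The horizontal log axis gives the summed MAS5 signal of each marker list on each array, with the number of genes summed in brackets, for FBR (red), in vitro activated (blue) and blood (grey) arrays. The FBR arrays lie above the in vitro activated arrays for neutrophil markers (24220 to 31810 against 3725 to 17480) and mesothelial markers, below them for B cell markers, and overlap them for macrophage genes. Most of the neutrophil sum was Chi3l1 on FBR arrays and Mmp9 on in vitro activated arrays.

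The genes highest in FBR CD68+ cells included secreted inflammatory mediators. Cxcl3, a ligand of the chemokine receptor CXCR2, had signals of 24519, 31561 and 23724 in FBR cells and 119, 21.5 and 8.49 in in vitro activated cells (log2 fold change 9.05, SE 0.57, adjusted p = 1.4e-05). Of its 5 probe sets, 3 were called higher and 2 did not pass. Il6, the cytokine interleukin 6, had 15054, 19676 and 14499 in FBR cells against 106, 45.4 and 1.67 in in vitro activated cells (8.32, SE 0.58, adjusted p = 2.4e-05). The size for such dim genes rests on the added constant, and for Il6 it was 9.42 with 1 added to the signal and 7.25 with 64 added. Ptgs2, the inducible cyclooxygenase of prostaglandin synthesis, had 22855, 25035 and 20168 in FBR cells against 78.1, 63.4 and 40.4 in in vitro activated cells (8.24, SE 0.49). In all of these every FBR array exceeded every in vitro activated array by a wide margin, as the choice of the highest genes without overlap requires. The blood arrays were far below the FBR arrays as well.

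**Figure D3:**
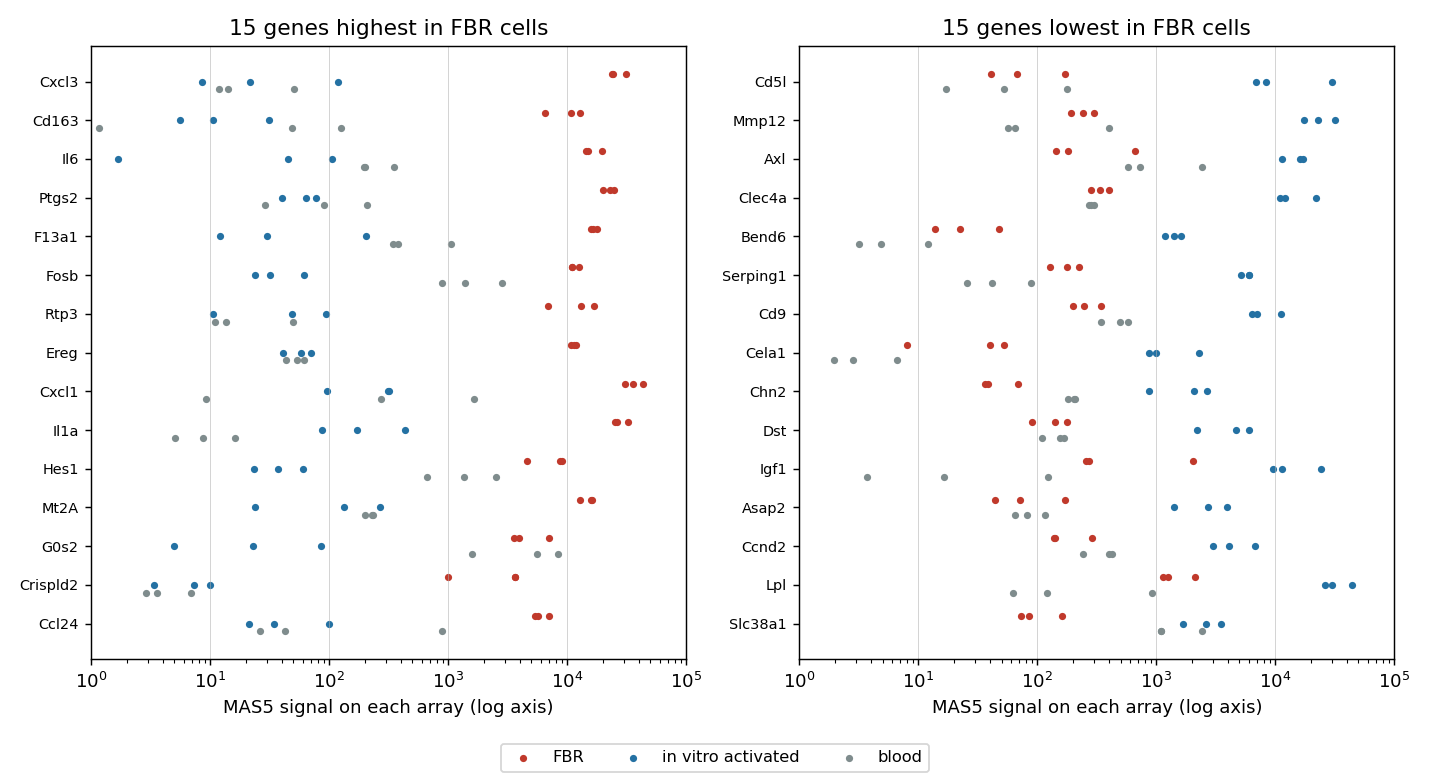
MAS5 signals on each array (log axis) of the 15 genes with the highest (left) and the 15 with the lowest (right) log2 fold change, for FBR (red), in vitro activated (blue) and blood (grey) arrays. No FBR point overlaps an in vitro activated point, as the choice of genes requires, and Cxcl3 spans 23724 to 31561 in FBR cells against 8.49 to 119 in in vitro activated cells.

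Of 20 measured inflammatory cytokines, 14 were called higher, 0 lower and 6 did not pass, with a median log2 fold change of 2.72 beside -0.23 over all genes. Il1a and Il1b, both forms of interleukin 1, differed by 7.08 and 5.83. Il1b had signals of 34291, 40505 and 30436 in FBR cells and 993, 1129 and 184 in in vitro activated cells. Tnf, tumor necrosis factor, was at 28266, 34169 and 27149 in FBR cells and 845, 1012 and 409 in in vitro activated cells (5.36, SE 0.33, adjusted p = 1.3e-05). The colony-stimulating factors Csf3 (5.57) and Csf2 (5.56), which drive the output and survival of granulocytes, were also called higher. So was Il10, a cytokine that restrains macrophage activation, at 943, 1793 and 1685 in FBR cells against 5.2, 10.1 and 33.5 in in vitro activated cells (5.57, SE 0.40). The calls of Mif (1.22) and Il18 (1.07), the smallest of the 14, were lost when any single array (Mif) or any of 5 single arrays (Il18) was left out. Il1rn, the interleukin 1 receptor antagonist (adjusted p = 0.27), Il12b, Il12a, Csf1, Tgfb1 and Lif did not pass.

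Among 26 chemokines, 13 were called higher and 2 lower, with a median of 1.96. The lower count was 1 without FBR replicate 2 or 3 or in vitro activated replicate 1 or 2 and after centring, and 3 without in vitro activated replicate 3. The CXCR2 ligands led, and Cxcl1 was at 36046, 43213 and 30429 in FBR cells and 315, 316 and 95.7 in in vitro activated cells (7.29, SE 1.17, adjusted p = 0.0019). Cxcl2, measured on all FBR arrays and 2 in vitro activated arrays, had 36805, 46106 and 34910 in FBR cells against 1065 and 129 in in vitro activated cells (6.62, SE 1.04). The chemokines higher in FBR cells also included ligands for monocytes and lymphocytes, Ccl7 (5.17), Ccl20 (5.09), Ccl3 (3.26) and the interferon-induced Cxcl10 (5.22). Ccl24, an eosinophil attractant, had signals of 7088, 5422 and 5697 in FBR cells and 21.2, 98.9 and 34.6 in in vitro activated cells (6.65, SE 0.95). Ccl22, a ligand of CCR4, was among the 2 lower members (-1.80, adjusted p = 0.0059), although its other probe set did not pass (-0.09). Ccl2, the monocyte chemoattractant, was bright in both groups, with 39469, 42328 and 30810 in FBR cells and 13770, 8618 and 3278 in in vitro activated cells, and did not pass (2.35, SE 1.07, adjusted p = 0.15).

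Prostaglandin and leukotriene genes were called in both directions. Besides Ptgs2, the terminal prostaglandin E synthase Ptges (3.8), the 5-lipoxygenase activating protein Alox5ap (2.96) and the prostaglandin E receptors Ptger2 (2.37) and Ptger4 (2.18) were called higher. Alox15, the 15-lipoxygenase, was called lower, at 15.2, 23.5 and 32.1 in FBR cells and 139, 146 and 260 in in vitro activated cells (-2.29, adjusted p = 0.0014). Ptges2, another prostaglandin E synthase, was called lower too (-1.07, adjusted p = 0.0089). In all, 6 of 17 members were called higher (35.3%), 2 lower (11.8%, beside 16.7% over all genes) and 9 did not pass.

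Genes of the NF-kB pathway, among them its transcription factors and genes that switch it off, were higher together. Of 18 measured, 17 were called higher, 0 lower and 1, Socs1, did not pass, with a median of 3.16. Nfkbiz, a nuclear regulator of NF-kB, had signals of 29569, 33275 and 27429 in FBR cells and 1178, 1268 and 850 in in vitro activated cells (4.77, SE 0.25, adjusted p = 5.5e-06), while its other probe set did not pass (0.05). Zc3h12a, an RNase that degrades cytokine transcripts, had 3114, 2870 and 2805 in FBR cells and 132, 137 and 145 in in vitro activated cells (4.26, SE 0.25). Called higher as well were the subunits Nfkb2 (3.85), Relb (2.22), Rela (2.20) and Nfkb1 (1.22) and the pathway genes Birc3 (4.37), Irak2 (4.07) and Tnfaip3 (3.65). The call of Nfkb1 was lost without FBR replicate 2 or 3. Nfkbia, the main inhibitor of NF-kB, had signals of 24538, 27612 and 20913 in FBR cells and was measured on only 1 in vitro activated array, at 1122 (4.41). Without that array it had no value.

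Promoter windows from 250 bases before to 50 after the annotated start were read from RefSeq on the GRCr8 rat assembly for 11733 of the 14217 genes, and searched on both strands for short motifs. The motif of NF-kB, spelled GGG, 2 bases of any kind and TTTCC, was in 1.51% of all 27457 windows and in 1.70% of the tested genes' windows. It was in 2.24% of the windows of genes called higher and 1.40% of those of genes called lower. In the NF-kB list 5 of 14 windows held it (35.7%), those of Nfkb1, Nfkb2, Nfkbia, Nfkbiz and Tnfaip3, and among chemokines 5 of 20 did (25.0%), of which Cxcl1, Cxcl2 and Ccl20 were called higher and Cxcl6 and Ccl9 did not pass. Of 11 inflammatory cytokine windows 2 held it (18.2%), those of Il6, called higher, and Il1rn, which did not pass. The windows of Il6, Cxcl1, Cxcl2 and Tnfaip3 are shown because they belong to genes far higher in FBR cells, and capitals mark the motif on either strand. A match is a stretch of letters and not a measured binding site.
Il6 (chr4:5894526-5894825, - strand): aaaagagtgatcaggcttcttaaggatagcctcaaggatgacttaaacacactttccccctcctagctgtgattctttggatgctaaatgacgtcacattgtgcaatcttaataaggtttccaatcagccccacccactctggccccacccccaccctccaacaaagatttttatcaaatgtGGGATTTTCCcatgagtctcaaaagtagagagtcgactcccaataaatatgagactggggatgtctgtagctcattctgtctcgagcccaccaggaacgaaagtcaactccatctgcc
Cxcl1 (chr14:17479272-17479571, - strand): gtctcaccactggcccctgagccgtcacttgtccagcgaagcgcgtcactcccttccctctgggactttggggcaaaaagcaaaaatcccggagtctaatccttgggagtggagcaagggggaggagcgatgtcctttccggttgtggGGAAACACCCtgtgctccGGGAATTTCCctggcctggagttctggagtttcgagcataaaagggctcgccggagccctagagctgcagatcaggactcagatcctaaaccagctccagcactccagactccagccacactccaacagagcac
Cxcl2 (chr14:17467206-17467505, - strand): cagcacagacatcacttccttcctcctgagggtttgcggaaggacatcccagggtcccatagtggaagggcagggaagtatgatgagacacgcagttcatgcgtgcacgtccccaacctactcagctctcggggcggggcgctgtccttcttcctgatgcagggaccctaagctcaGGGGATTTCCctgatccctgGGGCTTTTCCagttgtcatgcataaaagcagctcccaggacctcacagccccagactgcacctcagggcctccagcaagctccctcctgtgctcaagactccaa
Tnfaip3 (chr1:15543930-15544229, - strand): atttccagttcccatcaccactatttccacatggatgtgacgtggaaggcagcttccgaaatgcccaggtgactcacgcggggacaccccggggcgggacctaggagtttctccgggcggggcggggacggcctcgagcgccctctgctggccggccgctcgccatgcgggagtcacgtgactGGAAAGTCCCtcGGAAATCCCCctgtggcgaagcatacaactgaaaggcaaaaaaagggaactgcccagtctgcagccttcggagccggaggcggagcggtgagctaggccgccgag

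The immediate early factors, which are transcribed within minutes of a stimulus without new protein, had 21 of 25 members called higher, 1 lower and 3 not passing, with a median of 3.35. That was the highest median of the 29 functional lists as deposited, while after quantile normalisation it was 3.12, below the 3.38 of the NF-kB list. Fosb, an AP-1 subunit, had signals of 11093, 10916 and 12584 in FBR cells and 23.7, 31.5 and 61.9 in in vitro activated cells (7.77, SE 0.41, adjusted p = 5.9e-06). Egr1, a zinc finger factor, had 24905, 33805 and 26546 in FBR cells and 704, 529 and 484 in in vitro activated cells (5.60, SE 0.28). Nr4a1 (4.80), Zfp36 (4.77), Klf4 (4.44), Jun (3.79) and Fos (3.19) were called higher too. Egr2 went the other way, at 4370, 6708 and 7749 in FBR cells against 17564, 17078 and 11280 in in vitro activated cells (-1.3, SE 0.31, adjusted p = 0.015), and its call was lost without FBR replicate 1 and with arrays centred on their medians. Atf3, a stress factor, was bright in both groups and did not pass (0.25). Blood cells, which were also freshly isolated but without tissue digestion, had mean signals of 1710 for Fosb and, over the 2 arrays that measured it, 1890 for Egr1, between the other groups. The cyclic AMP response element TGACGTCA stood in 4 of 17 windows of this list (23.5%, Jund, Ier2, Maff and Dusp1), beside 1.91% of all windows, and the AP-1 motif TGANTCA in 0 of 17, beside 7.33%. The call of Jund was lost in 4 of the 6 fits that left out an array, those without FBR replicate 2 or 3 or in vitro activated replicate 2 or 3.

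Heat shock genes divided. The inducible Hspa1a, which encodes HSP70, had signals of 21696, 9419 and 9179 in FBR cells and 182, 160 and 122 in in vitro activated cells (6.2, SE 0.38, adjusted p = 1.3e-05). Hspb1, which encodes the small heat shock protein HSP27, had 4245, 979 and 623 in FBR cells and 60.2, 13.1 and 11.4 in in vitro activated cells (5.15, SE 0.65). Both were highest on the first FBR array. The mitochondrial chaperonins Hspd1 (-1.21) and Hspe1 (-1.47) were called lower, and both calls were lost without FBR replicate 2 or 3 and with arrays centred on their medians, that of Hspe1 also without in vitro activated replicate 1 or 3. Of 19 members, 6 were called higher (31.6%), 3 lower (15.8%) and 10 did not pass, beside 8.88% higher and 16.7% lower over all genes. The higher count was 4 with any single array left out, where the calls of Hspa5 and Dnaja1 were lost, and 4 after quantile normalisation. The lower count was 0 without FBR replicate 2 or 3 and 1 without in vitro activated replicate 3.

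Genes of glycolysis and the response to low oxygen were higher in FBR CD68+ cells, with 18 of 30 called higher, 0 lower and 12 not passing (median 1.49). Adm, the hypoxia-induced peptide adrenomedullin, had signals of 3110, 1492 and 1693 in FBR cells and 59.3, 6.16 and 101 in in vitro activated cells (5.11, SE 0.54, adjusted p = 0.00022). Vegfa, the vascular growth factor, had 3786, 1715 and 2428 in FBR cells and 395, 83.5 and 85.5 in in vitro activated cells (3.97, SE 0.53). The oxygen sensor Egln3 (3.59), the mitophagy receptor Bnip3 (3.38), the glucose transporter Slc2a1 (2.47) and the glycolytic regulator Pfkfb3 (2.50) were all called higher. Among the enzymes of the pathway, Ldha, Eno1, Pgk1 and Aldoa did not pass, and Ldha lay at 27817, 30151 and 24640 in FBR cells against 16849, 13720 and 23771 in in vitro activated cells (adjusted p = 0.16), though it passed with arrays centred on their medians. Aldoc, an aldolase, had signals of 1326, 1106 and 1101 in FBR cells and 20.1, 19.3 and 106 in in vitro activated cells (4.47, SE 0.43).

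The core of the hypoxia response element, ACGTG, which also lies inside the E-box CACGTG, was in 15 of 27 windows of this list (55.6%), beside 19.7% of all windows and 24.0% of those of the tested genes. Of those 15 genes, 10 were called higher and 5 did not pass. Other lists had high shares of ACGTG too. It was in 12 of 25 windows of lysosome and V-ATPase genes (48.0%), of which few were called. It was also in 11 of 26 windows of the endoplasmic reticulum stress and amino acid list (42.3%). The Aldoc window is shown as one with a single match, 31 bases before the start, in capitals.
Aldoc (chr10:63715294-63715593, + strand): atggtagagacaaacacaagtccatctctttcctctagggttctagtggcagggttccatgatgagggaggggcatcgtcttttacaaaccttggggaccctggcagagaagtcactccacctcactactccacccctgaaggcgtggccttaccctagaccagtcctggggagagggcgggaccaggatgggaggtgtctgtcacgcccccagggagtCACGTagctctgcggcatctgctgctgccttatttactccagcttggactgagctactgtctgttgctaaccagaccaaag

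Genes of mitochondrial energy metabolism were called lower or did not pass. Of 35 respiratory chain genes, 0 were called higher and 11 lower (31.4%, beside 16.7% over all genes), with a median of -0.45. They were led by Ndufs1 of complex I at 768, 785 and 646 in FBR cells and 2085, 2336 and 2598 in in vitro activated cells (-1.65, SE 0.22, adjusted p = 0.00074). Of 27 genes of the citric acid cycle and fatty acid oxidation, 0 were called higher and 6 lower (22.2%, near the 16.7% over all genes). Their median of -0.13 was not below the -0.23 of all genes. Got2, the mitochondrial aspartate aminotransferase, differed most, with 3040, 3113 and 3296 in FBR cells against 14327, 11639 and 17042 in in vitro activated cells (-2.16, SE 0.24). These counts depended on the scaling. With arrays centred on their medians the respiratory chain had 0 higher and 2 lower, and the cycle and oxidation genes 4 higher and 4 lower. The respiratory chain count of lower genes was 2 without FBR replicate 2 or 3, 5 without in vitro activated replicate 1 or 3, 6 without FBR replicate 1 and 10 without in vitro activated replicate 2.

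Arginine and nitric oxide genes were called in both directions, more of them higher. Arg1, the arginase, was at 22022, 24928 and 20182 in FBR cells and 4701, 2602 and 896 in in vitro activated cells (3.31, SE 0.67, adjusted p = 0.0062). Nos2, the inducible nitric oxide synthase that competes with arginase for the same amino acid, was at 356, 254 and 495 in FBR cells and 20.9, 122 and 174 in in vitro activated cells (1.91, adjusted p = 0.026), and its call was lost without FBR replicate 1 or 3. Ass1 (4.14), which regenerates arginine, and Gch1 (3.29), which makes the cofactor of nitric oxide synthase, were called higher. The arginine transporter Slc7a1 (-1.84) and the spermidine synthase Srm (-1.18) were called lower, Srm not after centring on array medians. In total 7 of 14 members were called higher and 3 lower, or 7 and 1 after centring.

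Genes linked to alternative activation were mostly higher in FBR CD68+ cells. Of 14 alternative activation genes, 10 were called higher, 1 lower (Ccl22) and 3 did not pass (median 3.08). Cd163, the receptor for haptoglobin-bound hemoglobin, had signals of 6557, 12892 and 10837 in FBR cells and 10.6, 5.57 and 31.3 in in vitro activated cells (8.34, SE 0.65, adjusted p = 4.6e-05). F13a1, the coagulation factor XIII A chain that macrophages make, was at 17709, 16363 and 15793 in FBR cells and 205, 12 and 30 in in vitro activated cells (7.98, SE 0.68). Clec10a, a lectin, and Stab1, a scavenger receptor of tissue macrophages, differed by 4.92 and 4.81. Mrc1, the mannose receptor, overlapped between the groups, with 7453, 11580 and 10347 in FBR cells and 2260, 2607 and 8669 in in vitro activated cells (1.37, adjusted p = 0.053). It passed after centring on array medians.

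Scavenger and clearance receptors had 8 of 24 members called higher (33.3%) and 4 lower (16.7%, the same share as over all genes). Beside Cd163 and Stab1, the complement components C1qc (4.72) and C1qb (4.41), which opsonise dying cells, were higher. C1qa did not pass, with 8306, 8272 and 6839 in FBR cells and 2753, 1753 and 283 in in vitro activated cells (2.78, SE 1.09, adjusted p = 0.095). The lowest gene of all was Cd5l, a secreted scavenger-family protein of tissue macrophages, at 171, 40.5 and 67.9 in FBR cells and 8311, 6834 and 30247 in in vitro activated cells (-6.97, SE 0.73, adjusted p = 0.00021). Axl, a receptor for apoptotic cells, had 666, 143 and 180 in FBR cells against 17032, 16197 and 11466 in in vitro activated cells (-5.73, SE 0.62). Its relative Mertk did not pass (-0.12).

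Lipid-associated macrophage genes were mostly lower, with 2 of 24 called higher, 14 lower and 8 not passing (median -1.62). Mmp12, the macrophage elastase, had signals of 191, 242 and 298 in FBR cells and 22776, 17384 and 31634 in in vitro activated cells (-6.51, SE 0.58, adjusted p = 8.9e-05). Lpl, lipoprotein lipase, had 2098, 1135 and 1245 in FBR cells and 30100, 26021 and 43833 in in vitro activated cells (-4.48, SE 0.74). Pparg, the nuclear receptor of lipid storage, had 157, 96.4 and 72.4 in FBR cells and 773, 1424 and 2660 in in vitro activated cells (-3.60, SE 0.50). Trem2, a lipid-sensing receptor, differed by -3.40 and the fatty acid carrier Fabp4 by -2.42. Igf1, a growth factor, was at 2026, 254 and 271 in FBR cells and 9522, 11334 and 24042 in in vitro activated cells (-4.67, SE 0.87, adjusted p = 0.0041), and the first FBR array was the highest of its group. Spp1, osteopontin, had 5700, 1459 and 967 in FBR cells and 30730 and 54591 on the 2 in vitro activated arrays that measured it (-4.34, adjusted p = 0.031), and its call was lost without FBR replicate 2 or 3 or in vitro activated replicate 1 or 3. Apoe and Gpnmb, both bright, did not pass. Without FBR replicate 3, 9 members were called lower. The cholesterol exporter Abca1 ran against the list, at 9016, 12618 and 10346 in FBR cells and 2105, 2097 and 2434 in in vitro activated cells (2.25, SE 0.32, adjusted p = 0.0011).

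Sterol and fatty acid synthesis genes had 3 of 29 called higher and 13 lower (median -0.68). The higher count was 1 without any single array other than in vitro activated replicate 3, and 6 after centring. The cholesterol enzymes Hsd17b7 (-3.24), Cyp51 (-2.73) and Msmo1 (-2.73) and the fatty acid enzymes Acaca (-2.24) and Fasn (-2.21) were lower, and Msmo1 had signals of 612, 539 and 503 in FBR cells and 4111, 2910 and 4395 in in vitro activated cells. Insig1, which holds the sterol sensor in the endoplasmic reticulum, was higher (2.44, SE 0.22, adjusted p = 8.5e-05). Other enzymes of the pathway, Idi1, Mvd, Mvk, Lss and Acly among them, did not pass. The second Acaca probe set did not pass either (-0.26). None of 22 windows of this list held the sterol element TCACNCCAC, which was in 1.13% of all windows, and nothing follows from that about the factor that binds it.

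Lysosomal genes hardly divided the groups. Of 34 lysosome and V-ATPase genes 2 were called higher and 6 lower (median -0.05), and of 17 cathepsins and cystatins 2 were called higher and 1 lower (median 0.05). After centring 6 lysosome genes were higher, and the higher cathepsin count was 0 without FBR replicate 2 or after quantile normalisation and 1 without any other array. The lower cathepsin count was 2 without FBR replicate 1 or in vitro activated replicate 3. Ctsb, an abundant cathepsin, lay at 28022, 33314 and 23692 in FBR cells and 29109, 23126 and 35588 in in vitro activated cells (-0.04, SE 0.31, adjusted p = 0.94), and Ctsd likewise overlapped (-0.28). Ctsk, a collagen-degrading cathepsin, was the member called lower, at 622, 275 and 308 in FBR cells and 6601, 8078 and 2702 in in vitro activated cells (-3.75, SE 0.53, adjusted p = 0.0011).

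Cell division genes were lower in FBR CD68+ cells. Of 35 DNA replication genes 0 were called higher and 25 lower (median -1.25), and of 40 mitosis genes 1 was called higher and 29 lower (median -1.92). Spc25, a kinetochore subunit, had signals of 122, 24.2 and 63.8 in FBR cells and 963, 1111 and 945 in in vitro activated cells (-3.74, SE 0.41, adjusted p = 0.00026). Mcm2, a subunit of the replicative helicase, had 323, 188 and 238 in FBR cells and 1862, 2086 and 1454 in in vitro activated cells (-2.79, SE 0.30). Cdk1, the mitotic kinase, had 297, 102 and 99.7 in FBR cells and 826, 945 and 958 in in vitro activated cells (-2.51, SE 0.49). Ccna2 (-2.96), Ccnb1 (-2.79), Plk1 (-2.78), Top2a (-2.88) and Tyms (-2.57) were also called lower. For many of these genes the first FBR array was the highest of its group, as with Top2a at 184, 38.4 and 39.4 in FBR cells against 343, 1133 and 560 in in vitro activated cells. With arrays centred on their medians the counts were 0 higher and 18 lower for replication and 1 higher and 28 lower for mitosis. Leaving out single arrays gave 18 to 26 and 26 to 30 lower.

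A few genes of these lists did not share that direction. Cks2, a small subunit that binds cyclin-dependent kinases, was called higher, at 7172, 13239 and 11438 in FBR cells and 1395, 662 and 705 in in vitro activated cells (3.54, SE 0.35, adjusted p = 0.00015). Pcna, the sliding clamp of DNA polymerase, was bright and overlapped between the groups, with 11534, 16995 and 14126 in FBR cells and 13959, 10287 and 11912 in in vitro activated cells (0.23, adjusted p = 0.56). The D-type cyclin Ccnd2, one of the 15 lowest genes, had 286, 142 and 138 in FBR cells and 3021, 6752 and 4061 in in vitro activated cells. In freshly isolated blood cells mean signals were 213 for Spc25 and 574 for Mcm2.

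The CHR motif of late cell cycle promoters, TTTGAA, was in 25 of 36 windows of the mitosis list (69.4%), beside 18.1% of all windows and 12.3% of those of the tested genes, and CCAAT was in 28 of 36 (77.8%), beside 37.7% of all. The CCAAT share was not particular to mitosis genes. It was 77.3% in the sterol and fatty acid list (17 of 22), 72.7% in the MHC class II list (8 of 11) and 58.1% in the DNA replication list (18 of 31). The windows with CHR belonged to 16 genes called lower, 8 that did not pass and 1 called higher, Cks2. Over all genes called lower the share with CHR was 13.3%. The windows of Cdk1 and Spc25 are shown because both genes were far lower in FBR cells, with TTTGAA in capitals on either strand. The matches to TTTGAA and CCAAT did not overlap in these windows.
Cdk1 (chr20:19265043-19265342, + strand): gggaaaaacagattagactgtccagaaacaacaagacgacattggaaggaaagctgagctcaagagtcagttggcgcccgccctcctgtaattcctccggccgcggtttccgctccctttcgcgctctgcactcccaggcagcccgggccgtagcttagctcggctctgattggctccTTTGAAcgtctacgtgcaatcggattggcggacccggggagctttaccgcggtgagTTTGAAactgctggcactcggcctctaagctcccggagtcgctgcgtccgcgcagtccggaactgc
Spc25 (chr3:74396669-74396968, - strand): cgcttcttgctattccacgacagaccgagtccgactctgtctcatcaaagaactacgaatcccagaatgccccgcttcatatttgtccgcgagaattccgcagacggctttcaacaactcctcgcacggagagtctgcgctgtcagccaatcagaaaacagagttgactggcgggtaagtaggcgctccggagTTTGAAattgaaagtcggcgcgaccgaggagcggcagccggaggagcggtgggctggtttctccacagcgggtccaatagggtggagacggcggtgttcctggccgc

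**Figure D4:**
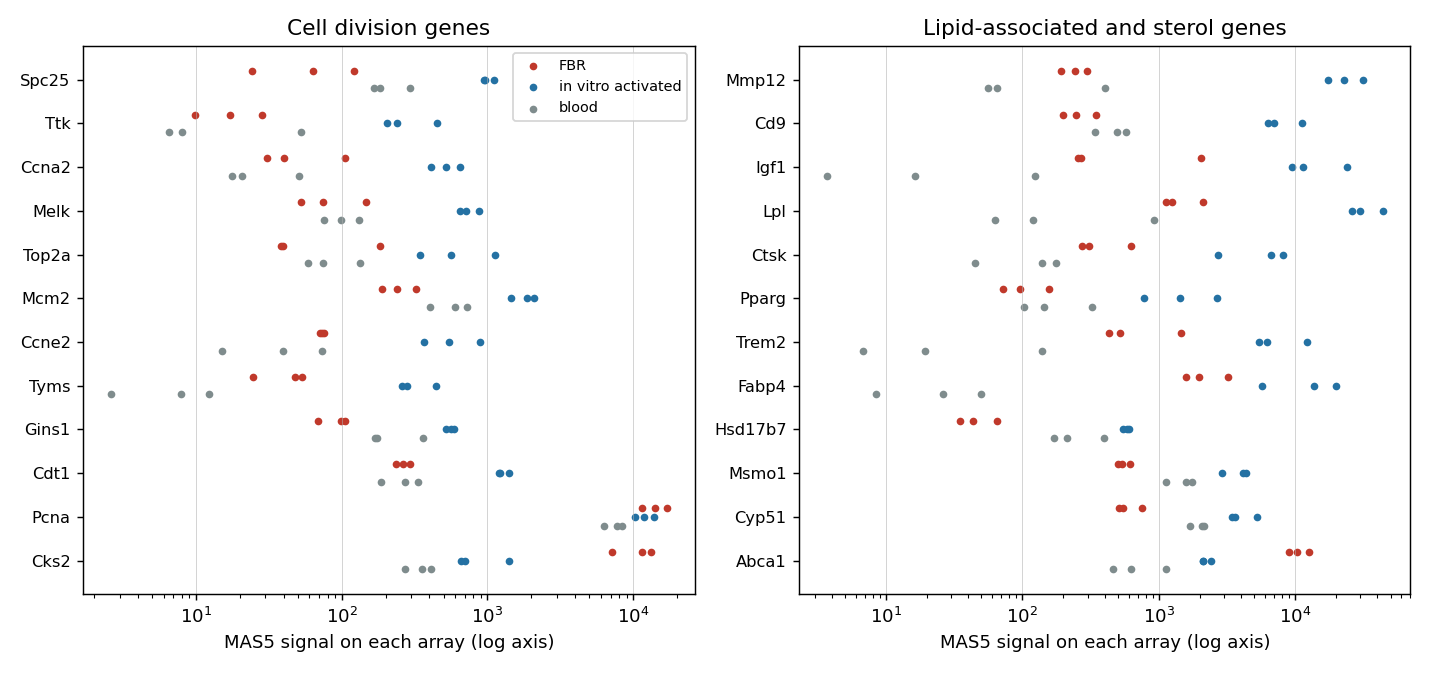
MAS5 signals on each array (log axis) of cell division genes (left) and of lipid-associated and sterol genes (right), for FBR (red), in vitro activated (blue) and blood (grey) arrays. FBR arrays lie below in vitro activated arrays for all genes drawn except Cks2 and Abca1, which lie above, and Pcna, which overlaps. Spc25 spans 24.2 to 122 in FBR cells against 945 to 1111.

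Genes that act on the matrix and on clotting were called in both directions. Of 24 matrix proteases and inhibitors (median -0.21, beside -0.23 over all genes), 11 had mean signals under 100 in both groups. In all, 5 were called higher and 5 lower (20.8% each), beside 8.88% higher and 16.7% lower over all genes. Without FBR replicate 1 the counts were 3 and 3, and the lower count was 2 without FBR replicate 3 and 3 without in vitro activated replicate 1 or 3. Mmp13, a collagenase, was at 224, 352 and 361 in FBR cells and 73.6, 15.3 and 11.6 in in vitro activated cells (2.91, SE 0.46, adjusted p = 0.0018), while Mmp2, a gelatinase, was at 127, 44.2 and 66.2 in FBR cells and 1153, 2095 and 625 in in vitro activated cells (-3.71, SE 0.48, adjusted p = 0.00067), with its dimmer probe set not passing (-0.40). The brighter Adam8 probe set, with a mean signal of 2350 over the 9 arrays, was higher (3.73). The other, at a mean of only 21.6, was called lower (-1.52), so the gene had no single direction over its probe sets. Mmp9 had 3074, 3029 and 2949 in FBR cells and 16131, 14646 and 2494 in in vitro activated cells, and did not pass.

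Of 18 coagulation and fibrinolysis genes, 7 were called higher (38.9%) and 2 lower (11.1%, beside 16.7% over all genes), with 1 lower without FBR replicate 2 or 3. F3, tissue factor, which starts clotting, had 4733, 4919 and 4709 in FBR cells and 120, 74.7 and 88.0 in in vitro activated cells (5.47, SE 0.28, adjusted p = 5.5e-06). Plaur, the urokinase receptor, was called higher (3.03, SE 0.53), whereas its ligand Plau, urokinase, was called lower, at 1955, 1166 and 1829 in FBR cells and 11914, 16886 and 14325 in in vitro activated cells (-3.13, SE 0.57). Serpinb2, an inhibitor of urokinase, differed by 4.77 (adjusted p = 0.014), and without FBR replicate 2 it no longer passed (adjusted p = 0.051).

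Among 28 integrins and adhesion molecules 11 were called higher and 4 lower. Itgb7, the beta 7 integrin, had signals of 4893, 3655 and 3695 in FBR cells and 230, 125 and 331 in in vitro activated cells (4.15, SE 0.36, adjusted p = 7.2e-05). Icam1, the ligand of the beta 2 integrins, was at 21333, 26552 and 25090 in FBR cells and 3362, 3117 and 1692 in in vitro activated cells (3.21, SE 0.38), and the heparan sulfate proteoglycans Sdc4 (3.72) and Sdc1 (3.11) were higher as well. Both chains of Mac-1, the fibrinogen receptor, did not pass (Itgam 0.52, Itgb2 -0.43). Alcam was called lower, at 1659, 1106 and 1067 in FBR cells and 12580, 12904 and 16930 in in vitro activated cells (-3.47, SE 0.27), as was the laminin receptor chain Itga6 (-2.74).

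Growth factors had 9 of 27 members called higher and 2 lower. Ligands of the epidermal growth factor receptor family stood first. Ereg, epiregulin, had 11808, 11382 and 10831 in FBR cells and 70.2, 57.6 and 41.2 in in vitro activated cells (7.31, SE 0.24, adjusted p = 6.4e-07). Areg, amphiregulin, was at 1050, 1037 and 936 in FBR cells and 1.94, 34.6 and 45.8 in in vitro activated cells (4.74, SE 0.40). Nrg1 (5.46), read by 8 probe sets of which 3 were called higher and 5 did not pass, and Hbegf (1.88) were called higher too. The mesothelial marker sum given above was also higher on every FBR array, and its part in these values was not tested. Without FBR replicate 1, 4 growth factors were lower.

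TGF-beta and BMP signaling genes had 7 of 30 called higher and 4 lower. Tgfbi, a secreted matrix protein induced by TGF-beta, had 21732, 27662 and 20998 in FBR cells and 264, 664 and 248 in in vitro activated cells (5.98, SE 0.45, adjusted p = 3.8e-05). Receptors were called on both sides. Tgfbr1, the type I TGF-beta receptor, was at 1814, 1717 and 1728 in FBR cells and 13707, 12773 and 14092 in in vitro activated cells on its brighter probe set (-2.94, SE 0.22), with the other not passing (-0.67), and Acvr1 was lower on 1 of its 3 probe sets (-2.55). The endothelial-type receptors Eng (2.11) and Acvrl1 (1.86) were higher. The ligands Tgfb1, Tgfb2 and Tgfb3 did not pass.

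Complement, antigen presentation and interferon genes were mixed. Of 17 complement genes 6 were called higher and 1 lower. Cfd, complement factor D, was at 10970, 10261 and 7763 in FBR cells and 336, 425 and 221 in in vitro activated cells (4.85, SE 0.38, adjusted p = 4.6e-05), and Serping1, the C1 inhibitor, was at 128, 226 and 178 in FBR cells and 5154, 6061 and 6069 in in vitro activated cells (-4.93, SE 0.35). Of 13 MHC class II and antigen presentation genes 3 were called higher and 1 lower, and of the higher calls RT1-Ba was lost in 5 and Cd74 in 4 of the 6 fits that left out an array, with RT1-Ba kept only without in vitro activated replicate 3 and Cd74 only without FBR replicate 3 or in vitro activated replicate 3. The one lower was the costimulatory Cd86, at 633, 309 and 252 in FBR cells and 2288, 3632 and 3467 in in vitro activated cells (-3.01, SE 0.37). The higher count was 1 without any single array other than FBR replicate 3 or in vitro activated replicate 3, and without in vitro activated replicate 1 the lower count was 2 here and 2 among complement genes.

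Of 32 interferon-stimulated genes 11 were called higher and 4 lower. Oasl, an antiviral protein, had 12724, 17735 and 16953 in FBR cells and 885, 691 and 325 in in vitro activated cells (4.7, SE 0.47, adjusted p = 0.00015), and Ifit3 (4.07), Irf1 (2.97) and Isg15 (2.23) were higher. Ube2l6, the enzyme that attaches ISG15 to proteins, was lower, at 142, 206 and 141 in FBR cells and 1583, 1016 and 1563 in in vitro activated cells (-2.96, SE 0.27), and Usp18, which removes it, was lower too, with a log2 fold change of -1.59. Mx1, Oas1a and Ifi44 did not pass. The lower count was 2 without FBR replicate 2 or 3 or in vitro activated replicate 1 or 2, and 2 after centring.

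Stress genes of the endoplasmic reticulum and amino acid response had 13 of 29 called higher and 5 lower, with 3 lower without FBR replicate 2 or 3 or in vitro activated replicate 1 and 2 lower after centring. Ppp1r15a, which restarts translation after stress, was at 9620, 11286 and 11959 in FBR cells and 600, 491 and 455 in in vitro activated cells (4.37, SE 0.29, adjusted p = 1.7e-05), and Ddit3 (1.99) and Atf4 (1.21) were higher. The serine synthesis enzymes Psat1 (-2.77), Phgdh (-2.37) and Psph (-1.18) were all lower, Psph not after centring on array medians, and Psat1 had 171, 147 and 192 in FBR cells against 1335, 1312 and 1111 in in vitro activated cells. Among 26 oxidative stress and heme genes 8 were called higher and 0 lower. The higher count was 4 without FBR replicate 2 or 3 or in vitro activated replicate 1 or 2, 10 without FBR replicate 1 and 13 after centring. The list was led by the metallothionein Mt2A at 16139, 15959 and 12955 in FBR cells and 269, 132 and 23.8 in in vitro activated cells (6.97, SE 0.57), whereas Hmox1, heme oxygenase, was bright in both groups and did not pass (0.75, adjusted p = 0.26).

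**Figure D5:**
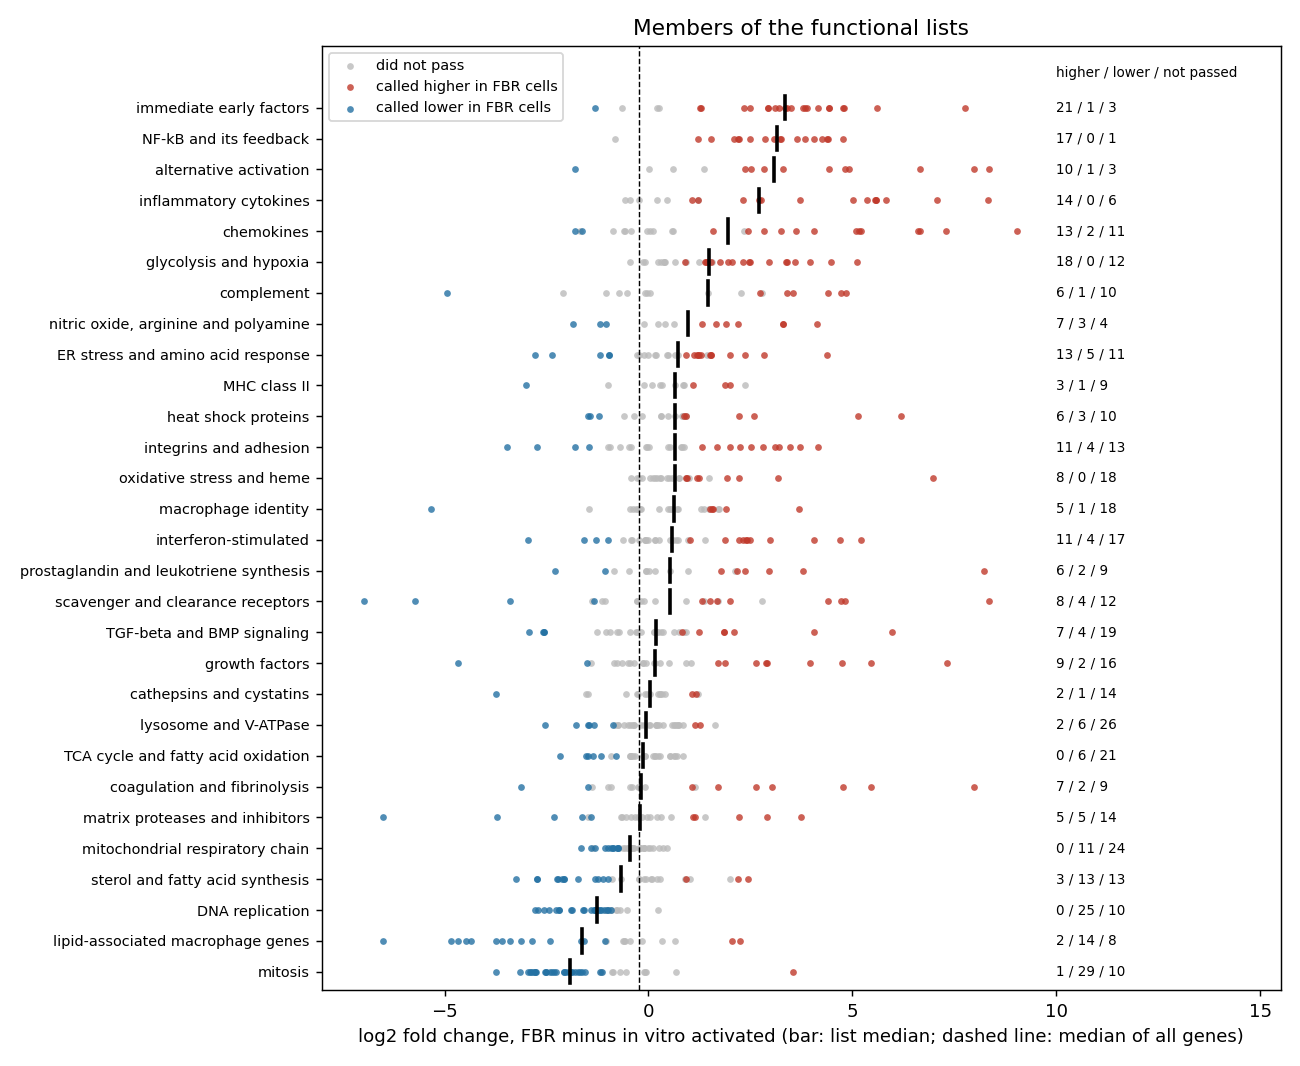
Each point is a measured member of 1 of 29 functional lists, placed at its log2 fold change, FBR minus in vitro activated. Red points were called higher, blue points called lower and grey points did not pass. Bars mark list medians, from 3.35 for immediate early factors to -1.92 for mitosis, and the dashed line marks the median of all genes at -0.23.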

How the data were processed

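CD68+ cells were profiled on 9 Affymetrix Rat Genome 230 2.0 arrays, 3 per group, from biotin-labelled RNA that the study amplified in a double round. The values used were the intensities the authors deposited, MAS5 signals on a linear scale with every array scaled to about the same trimmed mean. Of the deposited signals, 15.45% had lost their decimal point. Whole numbers of 6 to 7 digits were divided by 1000, cells that had turned into dates were restored (0.07%), and cells that could not be settled were set to missing (1.04%). Over the 6 arrays compared, 1902 probe sets (6.12%) had a missing value. The authors' 3 comparison tables, which hold log2 fold changes and adjusted p-values from RMA values for part of the probe sets, were not used.

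Signals were taken as log2 of signal + 16 and fitted with limma 3.58.1 in R 4.3.3 (lmFit and eBayes) over all 9 arrays, with 6 residual degrees of freedom, for the contrast FBR minus in vitro activated. P-values were adjusted by Benjamini-Hochberg over 31099 probe sets, and an adjusted p under 0.05 was called. They measure only the spread between arrays, whose number limits the precision. Each gene was read by its brightest probe set among those with 1 symbol (20832 probe sets, of which 20764 were matched by Entrez identifier to current names, 436 with several symbols and 9831 with none). The script was tested on simulated data. Promoter windows came from RefSeq. Summaries used Python 3.11.15, pandas 2.3.3 and scipy 1.17.1.

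The comparison, the 29 functional and 11 marker lists and the rule for named genes were chosen with earlier results of these data known. The rule took the 15 highest and 15 lowest called genes measured on all 6 arrays without overlap, the called list members with the largest differences in the list's main direction, those running the other way, members not passing where few were called, marker genes and Cd68. Other list members named in the text were chosen after their values were seen. Alternatives were other constants added to the signal, quantile normalisation, centring on array medians, a filter on dim probe sets, leaving out restored probe sets, the mean of a gene's probe sets, other limma settings, the 6 arrays alone, a stricter threshold, a replicate block and leaving out single arrays.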

Additional observations from a re-analysis of the deposited data

How the results depend on the processing

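With arrays centred on their medians, 3864 probe sets were called higher and 2344 lower (2006 and 1233 genes). Without probe sets that held a restored value, 698 were higher and 1703 lower (269 and 684 genes), out of fewer probe sets tested. At an adjusted p under 0.01, 1315 were higher and 2147 lower (711 and 1179 genes). Leaving out single arrays gave 1605 to 2336 probe sets higher and 2775 to 4003 lower, or 845 to 1197 genes higher and 1455 to 2057 lower. The lowest probe set counts came without FBR replicate 2, and without FBR replicate 3 there were 2916 probe sets and 1498 genes lower.

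Some list medians changed sign. Matrix proteases moved to 0.30 under the filter on dim probe sets, 0.06 after quantile normalisation and 0.14 after centring, and TGF-beta and BMP genes to -0.19 under the filter. T cell markers moved to 0.12 after quantile normalisation, 0.08 after centring and 0.15 without restored probe sets. Without restored probe sets the medians were also -0.00 for chemokines, -0.03 for prostaglandin genes, -0.23 for integrins, -0.28 for complement and -0.20 for macrophage genes, over fewer members. RT1-Ba was at -0.04 as the mean of its probe sets. Medians near 0 also changed sign. After centring they were 0.21 for TCA cycle, 0.29 for lysosome and 0.18 for coagulation genes, and after quantile normalisation 0.15 for coagulation genes and -0.11 for cathepsins. Coagulation genes were at 0.46 without restored probe sets and 0.07 without FBR replicate 2. Other sign changes without 1 array lay within 0.06 of 0 for functional lists, and the platelet, dendritic, mast cell, endothelial, NK and fibrocyte marker medians changed sign as well. The cause of these changes was not tested.

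Same-numbered arrays did not deviate together (r from 0.01 to 0.03), so the numbers were not taken to pair the samples. With the replicate block 2253 probe sets were called higher and 4159 lower (1176 and 2162 genes). Of 199 called genes among the 247 chosen by the naming rule, 163 kept their call in all 6 fits that left out an array. Of the 247, 15 lost their call after centring, 12 after quantile normalisation and 21 with 1 added to the signal. Without probe sets that held a restored value, 77 of the 247 kept their result and 1 lost its call. The rest, the larger part, held a restored value and could not be checked in this way. Signals near background limit the size of the largest differences, and in 83 genes called higher and 166 called lower the dimmer group averaged under 16.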
